A study of Mus musculus with 12 samples.

Results

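The Ly6 gene cluster of mouse chromosome 15 was followed through 12 RNA libraries of small-intestinal epithelium. It was described by 9 listed genes out of 48526 gene rows: Ly6a, Ly6c1, Ly6d, Ly6e, Gml, Gml2, Lypd2, Psca and Slurp1. The list was chosen by the input values of DKO against control, in which Gml2 and Ly6d were among the genes that rose most, so the values of that comparison are given as a description and without a test. The epithelium came from 4 female mice aged 3 months, and the titles call it whole intestine, while the protocol gives the proximal part of the small intestine, with 50 minutes in EDTA. In 2 mice, KAT2A/KAT2B DKO (DKO below), loss of the related lysine acetyltransferases Kat2a and Kat2b was induced by intraperitoneal tamoxifen, 100 mg/kg daily for 4 days in ethanol and corn oil, and tissue was taken 2 days after the last dose. The 2 control mice received the ethanol and corn oil alone, so genotype and tamoxifen cannot be told apart. The Cre driver and the floxed alleles are not given in the sources used here. Each mouse gave 1 input library (unselected RNA) and 2 pulldown libraries made with J2 and K1, antibodies to double-stranded RNA.

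Genes of the Ly6 family encode small proteins built on a fold of disulfide-linked loops called the Ly6/uPAR or three-finger domain. Most are tied to the outer face of the cell membrane by a glycosylphosphatidylinositol (GPI) anchor, and a few are secreted. Several respond to interferon, and Ly6a, known as Sca-1, is widely used as a marker of regenerating and fetal-like intestinal epithelium.

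The 9 genes lie within 334 kb (GRCm38). Their identifiers, positions and exonic lengths are, in order along chromosome 15, Psca (ENSMUSG00000022598.6, 74714839 to 74717069, plus strand, 860 bases), Slurp1 (ENSMUSG00000022596.3, 74724318 to 74728034, minus, 2933 bases) and Lypd2 (ENSMUSG00000022595.7, 74732247 to 74734329, minus, 679 bases). Next come Ly6d (ENSMUSG00000034634.7, 74762056 to 74763620, minus, 744 bases), Gml (ENSMUSG00000068349.12, 74813452 to 74818815, minus, 1152 bases) and Gml2 (ENSMUSG00000068600.10, 74819071 to 74834871, plus, 1392 bases). The last are Ly6e (ENSMUSG00000022587.14, 74955051 to 74959905, plus, 3784 bases), Ly6a (ENSMUSG00000075602.10, 74994877 to 74998031, minus, 1205 bases) and Ly6c1 (ENSMUSG00000079018.10, 75044018 to 75048830, minus, 1677 bases). The deposited counts were made without strand, which matters for 2 members: 20.5% of the exonic bases of Gml2 overlap Cyp11b1 on the opposite strand, and 11% of those of Slurp1 overlap Them6. Ly6c1 has a near copy, Ly6c2: 98.9% of its transcript matched Ly6c2 (97% identity or more, in matches of 100 bases or longer), so the division of reads between these 2 genes is uncertain.

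The RefSeq promoter table (GRCm38.p6) held 1 of the 9 members, Ly6c1. Its promoter and that of Ly6c2 are shown because the transcripts of these 2 genes are near copies while their counts, given below, differ. Each gene had 2 start sites listed, and the window of the first is shown. Each window runs from 250 bases before to 50 after the start site and is read on the minus strand, chr15:75048788-75049087 for Ly6c1 and chr15:75111922-75112221 for Ly6c2. Capitals mark runs of at least 12 identical aligned bases.
Ly6c1: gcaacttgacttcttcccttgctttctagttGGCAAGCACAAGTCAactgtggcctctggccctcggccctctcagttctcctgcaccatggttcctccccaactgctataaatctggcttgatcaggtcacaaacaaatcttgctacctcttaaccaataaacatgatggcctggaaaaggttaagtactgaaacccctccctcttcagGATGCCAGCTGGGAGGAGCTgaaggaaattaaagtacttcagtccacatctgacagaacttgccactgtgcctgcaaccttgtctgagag
Ly6c2: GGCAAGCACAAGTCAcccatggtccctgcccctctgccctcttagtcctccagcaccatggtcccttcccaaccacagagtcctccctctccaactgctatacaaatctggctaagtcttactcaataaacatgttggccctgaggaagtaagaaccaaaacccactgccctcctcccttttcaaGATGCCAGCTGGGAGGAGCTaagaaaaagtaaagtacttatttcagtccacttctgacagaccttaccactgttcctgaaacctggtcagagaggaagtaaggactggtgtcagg
Of 266 aligned bases, 208 (78.2%) were identical, and the 2 capital runs are at most 20 bases long. The windows were searched for 3 letter patterns on both strands, GAAANNGAAA, resembling the interferon-stimulated response element, TTCNNNGAA, resembling the gamma-activated site, and the TATA box TATAAA. They occurred in 3.44%, 8.30% and 13.6% of 32851 promoter windows of the same length. Neither interferon-type pattern occurred in the windows of Ly6c1 or Ly6c2, and TATAAA occurred 143 bases upstream of the first start of Ly6c1. None of the patterns, TATAAA included, occurred in the window of the second start of either gene.

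Gene-assigned counts were 10307281 to 11474107 in input, 13308021 to 16139531 in control pulldowns and 2220291 to 5826361 in DKO pulldowns, where reads without a unique place made up 15.83% to 46.71% of all reads against 5.54% to 8.05% in the other libraries. The deletion was visible in the labelled direction: Kat2b had 359 and 343 counts in control input and 118 and 114 in DKO, and Kat2a 222 and 228 against 84 and 148. All 15 genes of an intestinal epithelium list were tested in input, with summed levels of 10300 and 10900 CPM (counts scaled to a fixed library size after TMM) in control and 11100 and 9270 in DKO. Of these genes, 2 rose (Krt18 and Lgals3) and 2 fell (Fabp2 and Phgr1) by edgeR at an adjusted p under 0.05, beside 18.8% and 17.1% of all genes. A single library stood apart for the members: in J2 control replicate 2, the 7 genes with at most 3 counts in each control input and at least 100 in each DKO input summed to 48 counts, against 10 in J2 control replicate 1 and 12 and 13 in the K1 controls. Of these, the 5 genes outside the cluster summed to 30 against 7. Its part in the J2 results below was measured by leaving it out. DKO replicate 2 had the shallowest pulldowns, with 2691285 counts for J2 and 2220291 for K1. Replicates are separate mice, 2 per genotype.

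In input, 6 of the 9 members went from traces to clear expression in DKO, or in the case of Ly6e from moderate to high expression, and the other 3 stayed at or near 0. Among the surface antigens, Ly6a had 17 and 9 counts in the control libraries and 1698 and 1859 in DKO, or 0.999 ± 0.497 CPM against 139 ± 3.48 (SD, n = 2). Both DKO mice thus had nearly the same level, far above both controls. Ly6c1, an antigen of monocytes, endothelium and some T cells, had no counts in the control libraries (0 and 0) against 72 and 70 in those of DKO. Set against the floor of 3 counts per library this was at least 25.2-fold higher. The near copy Ly6c2 had 2 and 0 counts in control input and 3 and 3 in DKO.

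Ly6d, a marker of early B lymphocytes and of stratified squamous epithelium, had 0 and 1 counts in control input and 429 and 229 in DKO. The ratio of the summed counts was 680, with a 95% counting interval of 122 to 26900 (exact binomial, counting error only). Ly6e, an interferon-induced antigen known to restrict coronavirus entry, was the member with a clear level in control: 1235 and 1151 counts, against 8125 and 9115 in DKO. It was 90.5 ± 10.8 CPM in control and 673 ± 5.27 CPM in DKO, a log2 fold change of 2.93 (SE 0.15) or 7.64-fold. The smallest log2 fold change of the tested members therefore belonged to the most abundant one.

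Gml and Gml2 encode GPI-anchored relatives of the Ly6 proteins and lie side by side. Gml had 8 and 4 counts in control input and 1287 and 827 in DKO (83.9 ± 32.8 CPM), a log2 fold change of 7.54 (SE 0.43). Gml2 had 2 and 0 counts in control and 932 and 603 in DKO (60.9 ± 23.6 CPM), a ratio of summed counts of 793 with a counting interval of 219 to 6550. The fitted log2 fold change of Gml2 was 9.52 (SE 0.56), that of Ly6c1 9.20 (SE 0.69), that of Ly6d 9.15 (SE 0.73) and that of Ly6a 7.17 (SE 0.24). The values of Gml2, Ly6c1 and Ly6d lay within about their SE of each other, and they depend on the prior count of the fit because the controls had 2 counts or fewer.

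The 3 remaining members were close to absent. Psca, a GPI-anchored antigen first described in prostate, had 1 and 1 counts in control input and 22 and 1 in DKO, so its groups overlapped and its 22 counts came from 1 mouse. Slurp1, a secreted member that acts on nicotinic acetylcholine receptors and is known from skin, had at most 2 counts in any library. Lypd2 had 0 counts in all 12 libraries, which allows up to 0.0251 CPM over the 119392279 counts. The plot of each member in each library shows these levels side by side.

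**Figure D1:**
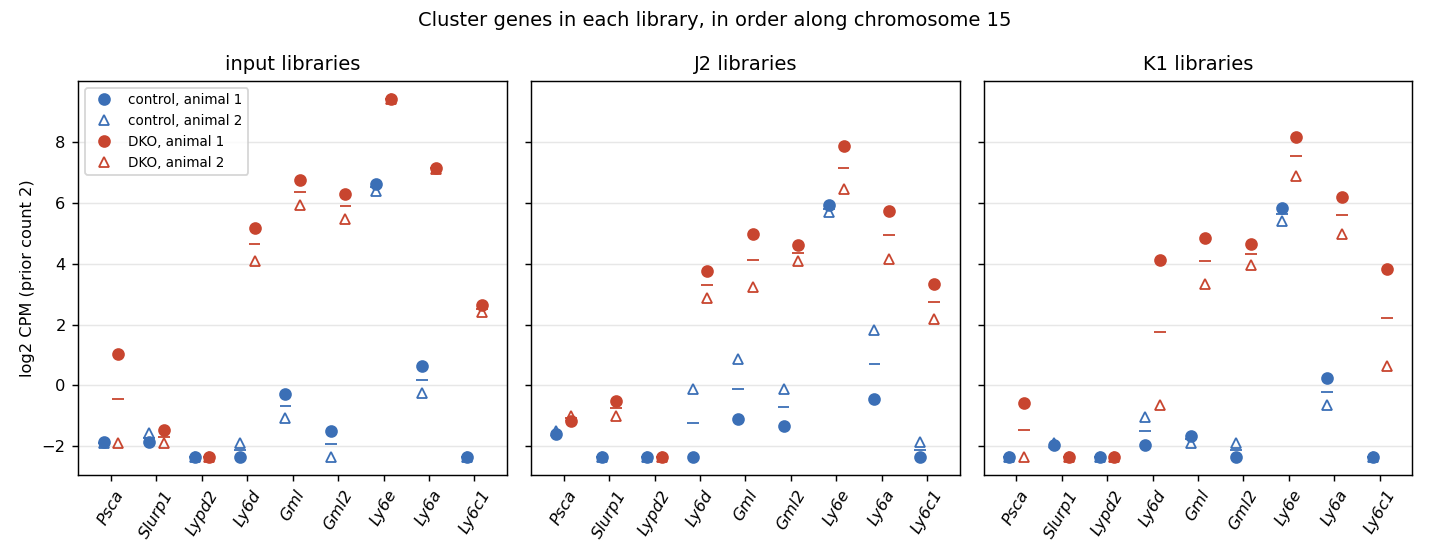
Level of the 9 genes in each library, as log2 CPM with a prior count of 2, in order along chromosome 15; panels are input, J2 and K1, blue is control, red is DKO, circles are animal 1, triangles are animal 2 and short lines are group means. In input the red points of Ly6a, Ly6c1, Ly6d, Ly6e, Gml and Gml2 sit above all blue points, while Lypd2 stays at the floor in every panel.

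The 6 members that passed the filter on low counts were higher in DKO input, beside 18.8% of the 15088 genes tested (edgeR, adjusted p under 0.05 and higher). Since this comparison chose the members, nothing is read from that count. In input and in both pulldowns Ly6e alone had 10 or more counts in both control libraries, so the other members passed the filter through their DKO libraries. The median log2 fold change of the 6 was 8.34, or 7.35 with Ly6c1 at its lower bound, and that of all genes was 0.00. In these bulk samples, more cells that express a gene and more RNA per cell cannot be told apart.

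On the scale of CPM per kilobase of exon, which allows levels of different genes to be compared, Ly6e was highest in DKO input with 178 ± 1.39 (SD, n = 2), followed by Ly6a with 115 ± 2.89. Gml followed at 72.8 ± 28.5, Gml2 at 43.8 ± 16.9 and Ly6d at 35.3 ± 18. The spread of these 3 genes is a difference between the mice that they share: Gml was at 93.0 in mouse 1 and 52.7 in mouse 2, Gml2 at 55.7 and 31.8 and Ly6d at 48.0 and 22.6, in the same order in both mice. Ly6c1 was far lower, at 3.32 ± 0.361. In control input only Ly6e was above 1 CPM per kilobase, at 23.9 ± 2.86, followed by Ly6a with 0.829 ± 0.413 and Gml with 0.401 ± 0.213.

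The 2 DKO mice did not have the same profile across the cluster. The ratio of the input CPM of DKO animal 1 to that of DKO animal 2 was 2.13 for Ly6d, 1.77 for Gml and 1.75 for Gml2, but 1.01 for Ly6e, 1.04 for Ly6a and 1.17 for Ly6c1. Among these members, the first 3 lie in the proximal part of the cluster and the last 3 in its distal part. Genes outside the list that start before Ly6d did not share the higher ratio as a set. They were at 0.58 for Adgrb1, 1.7 for Arc, 1.01 for Jrk, 1.11 for Them6 and 1.21 for Lynx1. Genes outside the list that start between Gml2 and Ly6e were at 1.75 for Cyp11b1, 2.27 for Cyp11b2 and 1.81 for 2010109I03Rik. BC025446, which starts beyond Ly6c1, was at 0.87. Differences between these mice were not particular to the cluster. Among interferon-induced genes, Ifit1 had 6390 and 3374 counts in the DKO input libraries, while Irf7 had 7061 and 7114. How many genes differ in this way was not counted. With 2 mice this is a description of these animals.

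Other genes of the same stretch of chromosome were read from a window that reaches 300 kb past the outermost members. It held 46 genes with counts listed, 37 of them outside the member list. Of the 9 such genes tested in input, 7 rose in DKO and 0 fell (edgeR, adjusted p under 0.05), beside 18.8% of all genes that rose. Among the 7, Cyp11b1, Cyp11b2, Lynx1 and Arc passed the filter on low counts through their DKO libraries, where they are higher. Nothing is therefore read from this count. Cyp11b1, the 11-beta-hydroxylase of corticosterone synthesis, had 1 and 0 counts in control and 341 and 221 in DKO, a ratio of 581 with a counting interval of 104 to 23000 (edgeR adjusted p = 0.000139). It overlaps Gml2 on the other strand, so reads of the shared bases cannot be assigned to either gene. Its DKO animals stood in a ratio of 1.75, equal to that of Gml2. Of the window's other genes with a mean of at least 50 counts, 2010109I03Rik, listed here with the Ly6 superfamily, had 1277 and 1307 counts in control and 6866 and 4305 in DKO (log2 fold change 2.22, SE 0.26, edgeR adjusted p = 0.00088). BC025446 rose by 0.54 on the log2 scale (SE 0.12, edgeR adjusted p = 0.0136), and Jrk had a log2 fold change of 0.01 (SE 0.24, edgeR adjusted p = 0.983).

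The remaining genes of the window with a test were named after their values were seen. Lynx1, a GPI-anchored modulator of nicotinic acetylcholine receptors, rose from 1 and 4 counts to 79 and 74 (log2 fold change 4.96, SE 0.45, edgeR adjusted p = 0.00032). Cyp11b2, the aldosterone synthase gene, had 2 and 0 counts in control and 84 and 42 in DKO, a ratio of 65.1 with a counting interval of 17.6 to 543 (edgeR adjusted p = 0.0016). Arc rose by 2.60 (SE 0.52, edgeR adjusted p = 0.0075) and Them6 by 1.56 (SE 0.31, edgeR adjusted p = 0.0068) on the log2 scale. Adgrb1 did not pass (log2 fold change 0.90, SE 0.37, edgeR adjusted p = 0.0985). The plot along the cluster shows that the largest values lay between Ly6d and Ly6c1 with lower ones among them.

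**Figure D2:**
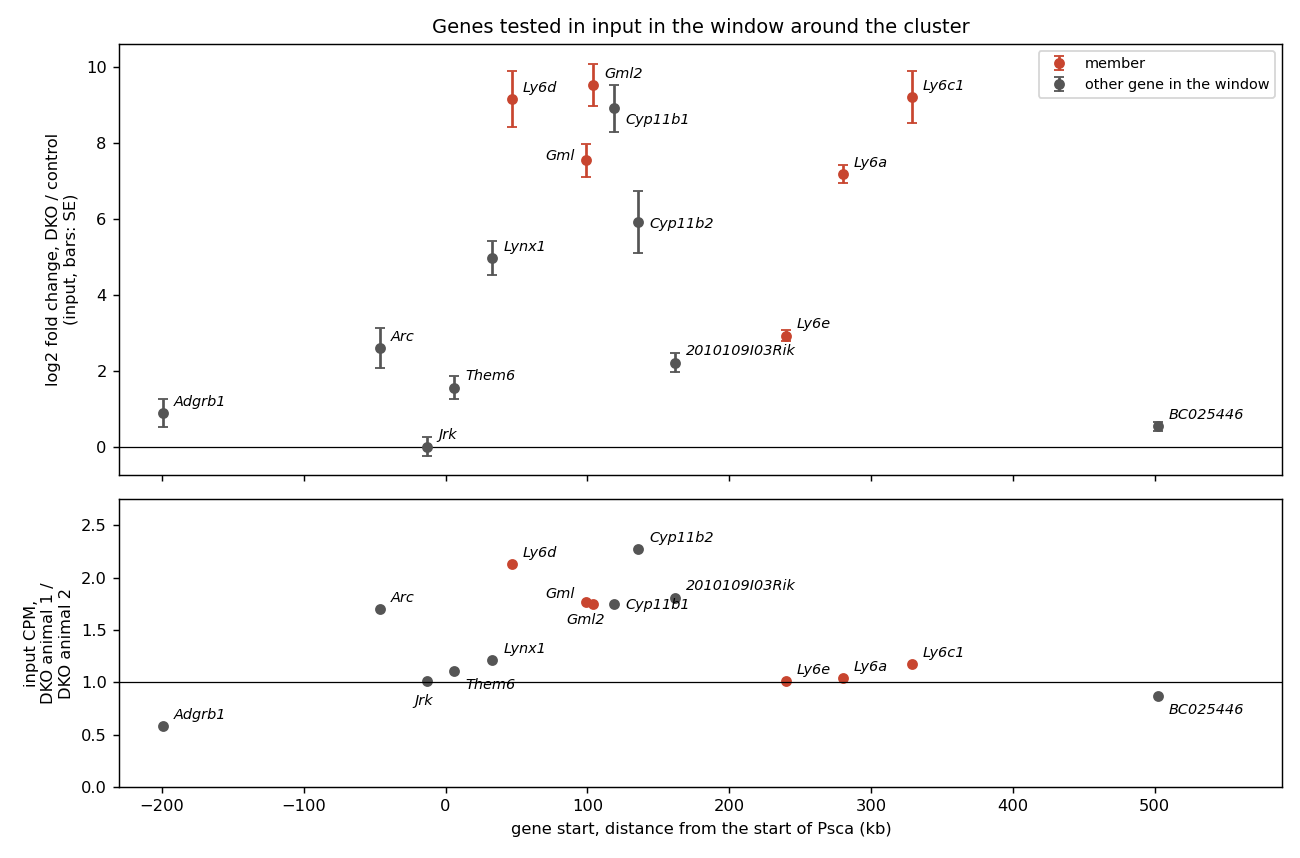
Upper panel: log2 fold change in input, DKO over control, with SE bars, of the 15 genes tested within the window, against the distance of the gene's start from the start of Psca in kb. Lower panel: ratio of input CPM between the DKO animals, 1 over 2. There Ly6d, Gml, Gml2, Cyp11b1, Cyp11b2 and 2010109I03Rik lie at 1.75 or above and Ly6e and Ly6a at 1.01 and 1.04.

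Among 17 further Ly6 superfamily genes listed for this part of chromosome 15, 14 had counts listed and 3 were tested in input. Lynx1 and 2010109I03Rik rose, and 9030619P08Rik had a log2 fold change of 1.29 (SE 0.43, edgeR adjusted p = 0.0523). Ly6g, a granulocyte antigen, had 0 and 0 counts in control input and 10 and 6 in DKO, and Ly6f had 0 and 1 against 9 and 19. Both were below the filter. Ly6h, Ly6k, Ly6l, Gpihbp1 and Slurp2 had 0 counts in all 12 libraries.

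Ly6 superfamily genes on other chromosomes were read for comparison. Of 25 listed, 11 were tested in input, 5 rose and 0 fell (edgeR), beside 18.8% and 17.1% of all genes. Their median log2 fold change was 0.99. It is not set against that of the members, which this comparison chose. Lypd8, a protein of the gut lumen that keeps bacteria away from the colonic epithelium, rose from 1560 ± 433 to 6380 ± 1300 CPM (SD, n = 2; log2 fold change 2.07, SE 0.26, edgeR adjusted p = 0.00117). Plaur, the urokinase receptor, rose from 1.16 ± 0.186 to 19.4 ± 4.48 CPM (log2 fold change 4.08, SE 0.28, edgeR adjusted p = 0.000131). Cd177, a neutrophil antigen, rose by 1.03 (SE 0.26, edgeR adjusted p = 0.0186), and the others that rose were Ly6g6c and Spaca4. The complement regulators Cd59a and Cd59b had log2 fold changes of -1.67 and -1.12 (edgeR adjusted p = 0.0941 and 0.0744).

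Genes that attach the GPI anchor went both ways. Of 27 tested, 5 rose (Piga, Pigc, Pigz, Dpm2 and Pgap1) and 5 fell (Pigk, Pigl, Pigp, Dpm3 and Pgap3) in input (edgeR), beside 17.1% of all genes that fell, and the median log2 fold change of the 27 was -0.08. Pigt, a subunit of the transamidase that joins protein and anchor, had 163 ± 8.17 CPM in control and 153 ± 22.6 in DKO (SD, n = 2; edgeR adjusted p = 0.8).

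Of 30 interferon-induced genes, 29 rose and 0 fell in input (edgeR), beside 18.8% of all genes that rose, with a median log2 fold change of 3.39. Irf7 rose from 85.1 ± 13.9 to 555 ± 46.5 CPM, Oasl1 from 87.3 ± 17.8 to 512 ± 245, and Oas3 from 57.7 ± 11.4 to 579 ± 60.4 (SD, n = 2; edgeR adjusted p = 8.26e-05, 0.00109 and 6.18e-05). Of 12 tested genes of regenerative and fetal-like epithelium, 12 rose, beside the same share of all genes. Among them Anxa10, Il1rn and Anxa1 passed the filter on low counts through their DKO libraries, where they are higher. Nothing is therefore read from this count. The median was 3.33, which is also its value with the 2 genes at 0 counts in control set to their lower bounds. Areg, a growth factor of this programme, rose from 6.59 ± 0.675 to 232 ± 69.0 CPM (edgeR adjusted p = 5.32e-05), and Krt7 from 42.9 ± 3.27 to 65.2 ± 1.15 CPM (edgeR adjusted p = 0.00555). The log2 fold change of Ly6e lay below the medians of both lists, and those of the other 5 tested members lay above them. As this comparison chose the members, nothing is read from their place.

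Because Ly6d, Ly6c1 and Ly6a also mark other cell types, marker lists of those types were read in the same libraries. Of the stratified squamous list, 4 of 20 genes were tested and 3 rose: Krt5, from 0 and 0 to 17 and 12 counts, Sprr1a, from 10 and 28 to 347 and 173, and Perp, from 131 ± 3.20 to 175 ± 14.3 CPM. The other tested gene, Sfn, had 86.4 ± 8.66 CPM in control and 79.2 ± 8.38 in DKO. Below the filter, Krt15 had 1 and 8 counts in control input and 9 and 24 in DKO, and the rest had at most 4 in any input library. Among them Trp63, Krt4, Krt6b, Krt17 and Sprr1b had 0 counts in every library. The endothelial list had 6 of 16 tested and 1 that rose, Tie1, with 0 and 0 counts in control and 152 and 97 in DKO. Of the 10 endothelial genes below the filter, Plvap had 2 and 2 counts in control input and 7 and 14 in DKO, Eng had 1 and 0 against 3 and 4, and the other 8, Cdh5, Kdr and Cldn5 among them, had at most 3 in any input library. The summed list was 12.9 and 14.8 CPM in control and 24.1 and 19.2 in DKO. Of the leukocyte list, 15 of 20 were tested, 2 rose and 7 fell (edgeR), with sums of 149 and 150 CPM in control and 112 and 95.3 in DKO. Those that rose were the macrophage genes Csf1r, from 8 and 7 to 67 and 27 counts (log2 fold change 2.74, edgeR adjusted p = 0.0102), and Cd68, from 20 and 25 to 48 and 37 (1.01, edgeR adjusted p = 0.0413). Other myeloid genes of the list did not rise with them. Itgax fell (-0.85, edgeR adjusted p = 0.0371), and Itgam and Lyz2, at -0.45 and 0.62, were not called (edgeR adjusted p = 0.377 and 0.24). Of the T cell genes, Cd8a fell from 17.4 ± 2.10 to 10.2 ± 2.01 CPM (SD, n = 2; edgeR adjusted p = 0.0246). Of the stomach list 6 of 18 were tested. The 3 that rose were Anxa10, with 0 and 0 counts in control and 383 and 229 in DKO, Muc1, with 8 and 4 against 77 and 38, and Pgc, with 12 and 14 against 22 and 32, and Gkn3 fell from 16 and 42 counts to 2 and 2. Muc6 and Atp4a, with log2 fold changes of 0.29 and -1.66, were not called, and Tff1 and Sox2 had 0 counts in every library. Of the stromal list 5 of 14 were tested and 1 rose, Pdgfrb, from 9 and 14 to 61 and 24 counts, and the erythrocyte list had 1 gene tested and 0 called. The part of these cells in the levels of the members was not tested.

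**Figure D3:**
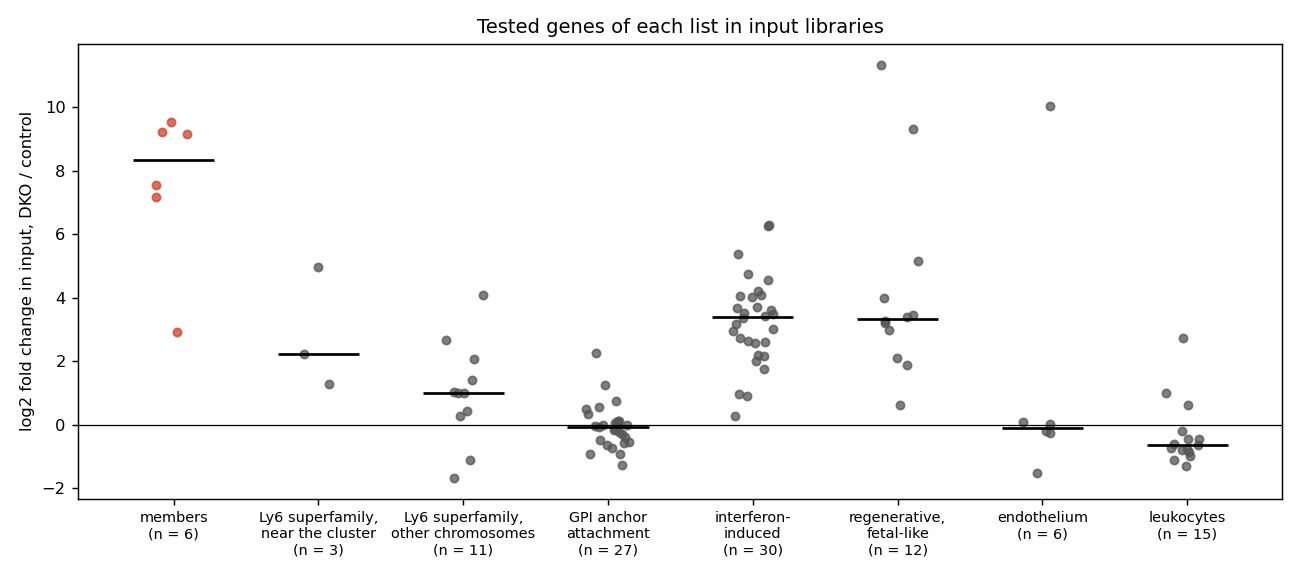
Log2 fold change in input, DKO over control, of each tested gene in 8 lists, with the number tested in brackets, points spread sideways for legibility and a line at the median. The member points lie from 2.93 to 9.52, the interferon-induced genes around a median of 3.39, and the genes of GPI anchor attachment around -0.08. The members were chosen by this comparison, so their height is a description.

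The J2 pulldowns played no part in choosing the members but come from the same mice. There 6 of the 9 members were tested and 4 rose in DKO (Ly6c1, Gml2, Gml and Ly6a), beside 6.02% of all 13181 tested genes. These 4 passed the filter on low counts through the DKO libraries, where they are high. Nothing is therefore read from that count or from their p-values, and the values of each gene are given. The J2 libraries of the control mice held 3 and 9 counts of Gml2 (0.206 and 0.728 CPM), those of the DKO mice 96 and 54 (24.5 and 16.6 CPM). Both DKO libraries were far above both controls, with a log2 fold change of 5.50 (SE 0.69, edgeR adjusted p = 0.0287). Ly6c1 had 0 and 1 counts in control and 39 and 14 in DKO (ratio 199, counting interval 34.2 to 8010, edgeR adjusted p = 0.0287).

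For Gml the control J2 libraries held 4 and 20 counts (0.274 and 1.62 CPM) against 123 and 30 (31.3 and 9.23 CPM) with the deletion (log2 fold change 4.46, SE 0.99, edgeR adjusted p = 0.0472). For Ly6a the control libraries held 8 and 41 counts (0.548 and 3.32 CPM) against 208 and 57 (53.0 and 17.5 CPM) (log2 fold change 4.23, SE 0.97, edgeR adjusted p = 0.0497). For both genes the higher control value came from replicate 2, and the lower DKO value also from replicate 2. Ly6d, with 0 and 9 counts in control and 52 and 23 in DKO, missed the threshold (log2 fold change 4.86, SE 1.20, edgeR adjusted p = 0.0557). Ly6e missed it too, with 60.8 and 51.0 CPM in control and 232 and 85.8 in DKO (log2 fold change 1.53, SE 0.51, edgeR adjusted p = 0.0996). Ly6e was the tested member that passed the filter in control as well as in DKO.

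Leaving out J2 control replicate 2, which stood apart, the log2 fold changes were 6.51 for Gml2, 6.09 for Gml and 5.93 for Ly6a. Leaving out J2 control replicate 1 instead, they were 4.78, 3.61 and 3.39. Without DKO replicate 1, Ly6e was at 0.70, and without DKO replicate 2 at 2.11. The number of all genes called moved widely between these fits, so counts of called members are not read from them. Without TMM scaling, Gml and Ly6a lost their calls and 2 members remained.

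In the K1 pulldowns 5 members were tested and 5 rose, beside 13.2% of 12888 genes that rose. As in J2, all but Ly6e passed the filter through the DKO libraries, so this count and the p-values of those genes are given without a reading. Gml2 had 0 and 1 counts in control and 105 and 34 in DKO (ratio 641, counting interval 113 to 25500, edgeR adjusted p = 0.00168). Gml had 2 and 1 counts in control and 120 and 22 in DKO (ratio 218, counting interval 73.2 to 1070, edgeR adjusted p = 0.00187). The K1 controls were thus at the floor for both genes, without the higher value seen in J2 control replicate 2.

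Ly6a had 0.986 and 0.447 CPM in control K1 and 72.6 and 31.2 in DKO (log2 fold change 6.29, SE 0.55, edgeR adjusted p = 0.00178). Ly6e rose from 56.7 and 42.3 CPM to 286 and 118 (log2 fold change 2.19, SE 0.41, edgeR adjusted p = 0.0101). Ly6c1 had 0 counts in both controls against 59 and 3 in the DKO libraries; with 3 counts per library as the floor it was at least 40.8-fold higher (edgeR adjusted p = 0.00947). Nearly all of its counts came from DKO replicate 1. Ly6d was below the filter, with 1 and 4 counts in control and 72 and 1 in DKO, again with its counts in DKO replicate 1. Without DKO replicate 1, Ly6e was at 1.49 on the log2 scale.

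The rise of interferon-induced genes was also present in the pulldowns, where 19 of 30 rose in J2 and 29 of 30 in K1 (edgeR), with medians of 3.13 and 3.47. Stromal markers varied between these libraries. Their summed level was 15.8 and 36.1 CPM in control J2 against 227 and 41.8 in DKO, so the high J2 value came from DKO replicate 1. In K1 it was 14.2 and 58.2 in control against 253 and 119 in DKO. Of 8 stromal genes tested, 0 were called in J2 and 3 rose in K1. Their part in the values of the members was not tested.

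Whether the pulldowns held more or less of the cluster's RNA than the input was read within each genotype. In DKO, Ly6e, Ly6a and Gml were a smaller share of the K1 pulldown than of the input, and Ly6e was also a smaller share of the J2 pulldown. The DKO input libraries used here also chose the list, through Gml2 and Ly6d. The differences of the other members are therefore not independent of that choice. Ly6e was at 676 and 669 CPM in DKO input, 232 and 85.8 in J2 and 286 and 118 in K1. All 4 pulldown values lay below both input values, with a log2 difference of -2.05 for J2 (SE 0.47, edgeR adjusted p = 0.0177) and -1.82 for K1 (SE 0.38, edgeR adjusted p = 0.00521). Without control replicate 1 or control replicate 2, which share the estimate of the spread, the J2 difference of Ly6e lost its call (edgeR adjusted p = 0.12 and 0.101).

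Ly6a was at 141 and 136 CPM in DKO input, and was lower in K1 (log2 difference -1.48, SE 0.36, edgeR adjusted p = 0.0105), a call lost in a fit of all 12 libraries (edgeR adjusted p = 0.133), while its J2 difference of -1.95 missed the threshold (SE 0.67, edgeR adjusted p = 0.0646). Gml was lower in K1 by the same test (-2.14, SE 0.41, edgeR adjusted p = 0.00358), and its J2 difference was -2.01 (SE 0.66, edgeR adjusted p = 0.055). Fitted with the animal as a block, the J2 difference of Gml was -2.17 and passed (edgeR adjusted p = 0.0288). Ly6c1 did not follow this pattern: its differences were 0.40 for J2 (SE 0.48, edgeR adjusted p = 0.566) and 0.53 for K1 (SE 0.65, edgeR adjusted p = 0.559). Its sign rested on DKO replicate 1, without which the values were -0.36 and -2.07.

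Of these 4 members, then, 1 was called lower in J2 and 3 in K1, beside 13.4% of 15923 and 21.0% of 15908 genes called lower. Because the DKO input also chose the list, nothing is read from these counts. In J2, 3 of the 4 were called with DESeq2, which called 4683 genes in either direction, against 4087 by edgeR. The J2 count of members also moved in the fits that leave out a mouse, as did the number of all genes called. Gml2 and Ly6d are given as values only, because their input levels chose the list. Gml2 was at 77.6 and 44.2 CPM in DKO input, 24.5 and 16.6 in J2 and 24.9 and 15.4 in K1, and Ly6d was at 35.7 and 16.8 CPM in input, 13.2 and 7.08 in J2 and 17.1 and 0.452 in K1. In each DKO mouse both genes were thus lower in either pulldown than in its input.

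In control, only Ly6e had counts enough to be read. It was at 98.1 and 82.8 CPM in input, 60.8 and 51.0 in J2 and 56.7 and 42.3 in K1, so all pulldown values lay below both input values. The log2 difference was -0.69 for J2 (SE 0.45, edgeR adjusted p = 0.282) and -0.95 for K1 (SE 0.37, edgeR adjusted p = 0.0637). Ly6e was thus not called with either antibody, where 14.6% (J2) and 20.1% (K1) of all genes were called lower. The control libraries held at most 41 counts of Ly6a, 20 of Gml and 1 of Ly6c1. With the animal as a block, 2 members were called lower in K1 against control input, Gml at -2.18 and Ly6e at -0.96 (edgeR adjusted p = 0.0253 and 0.0134). The value of Gml rests on 8 and 4 counts in input and 2 and 1 in K1.

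The pulldown minus input value of each mouse, on the log2 CPM scale with a prior count of 2, placed the genotypes side by side. For Ly6e and J2 it was -0.69 and -0.70 in the control mice and -1.54 and -2.96 in the DKO mice, and for K1 it was -0.79 and -0.97 against -1.24 and -2.51. Both DKO mice lay below both control mice with either antibody. For Gml2 and J2 the control mice had 0.18 and 2.24, the DKO mice -1.66 and -1.40, and for Gml and J2 they were -0.82 and 1.91 against -1.77 and -2.69. The control values of Gml2 and Gml rest on at most 20 counts a library, and the higher of each came from J2 control replicate 2. For Ly6a and J2 the control values were -1.05 and 2.06 and those of DKO -1.41 and -2.95. For Ly6c1 the genotypes overlapped with both antibodies. The difference between genotypes was not tested for the members, since it holds the input comparison that chose them.

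**Figure D4:**
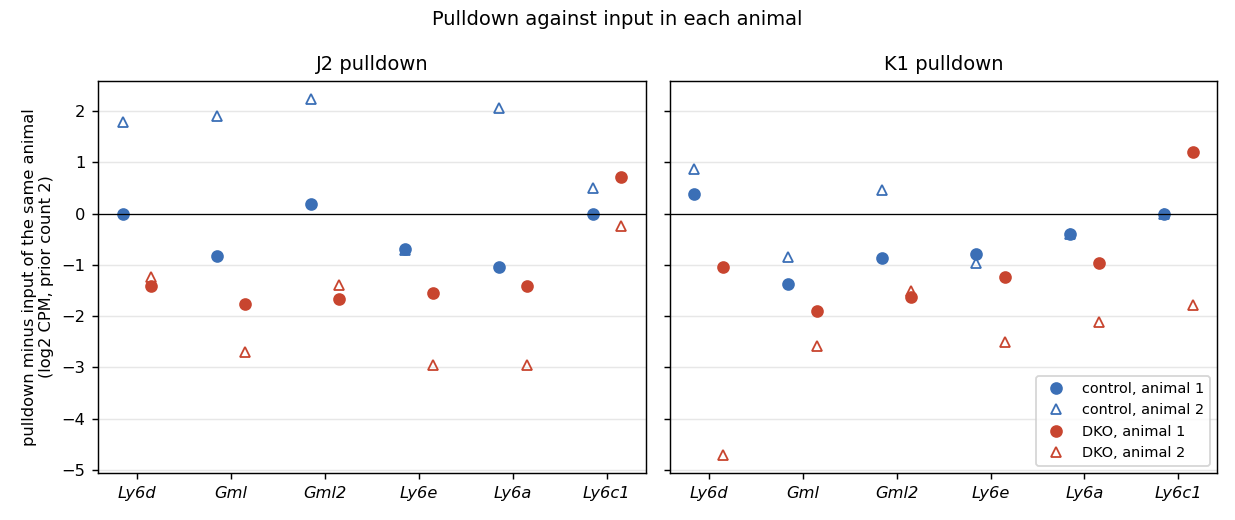
Pulldown minus input of the same animal in log2 CPM (prior count 2) for the 6 members with more than a trace in DKO; left J2, right K1, blue control, red DKO, circles animal 1, triangles animal 2. Ly6e lies below 0 in all 8 comparisons and lower in both DKO animals, and the J2 values of control animal 2 reach 2.24 for Gml2.

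The antibodies were compared with each other within each genotype. No gene among 14285 was called in either genotype (0 of 14285, or 0% called, by edgeR), while 1808 genes in control and 530 in DKO had an unadjusted p under 0.05, and DESeq2 called 333 and 3. Ly6e had a log2 difference of K1 over J2 of -0.21 (SE 0.54, edgeR adjusted p = 0.899) in control. In DKO it was 0.35 (SE 0.54). With the animal as a block, 3959 genes were called in control, 2 members among them: Gml at -2.96 and Gml2 at -3.29 (edgeR adjusted p = 0.0149 and 0.0234). Their counts in control were 4 and 20 in J2 against 2 and 1 in K1 for Gml, and 3 and 9 against 0 and 1 for Gml2. In DKO the block gave 8 called genes and 0 members.

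The genes whose level followed Gml2 and Ly6d most closely over the 12 libraries were drawn from 9274 protein-coding genes with a mean of at least 50 counts. Members of the cluster and genes with symbols of the Gm or Rik kind were left out of these candidates. These correlations are a description, since libraries share animals, genotype and depth. For Gml2 they were Fut2 (Pearson r = 0.992), Isg20 (0.985), Trim30a (0.981), Oas2 (0.980) and Phf11d (0.979), and the median over all candidates was -0.196. For Ly6d they were Mapre3 (0.957), Nabp1 (0.956), Parp11 (0.945), Plpp3 (0.945) and Cyp11b1 (0.944), with a median of -0.125. Of these 10 genes, Cyp11b1 alone lies on chromosome 15. As members and 2010109I03Rik were no candidates, this does not show how closely genes of the cluster follow each other.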

How the data were processed

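The study measured RNA in 12 libraries of small-intestinal epithelium. Per the labels, random hexamers primed the libraries, which lacked ribosomal RNA, carried molecular identifiers and were read as pairs of 150 bp. The deposited values are whole-number counts per gene, made without strand per the labels' file descriptions. Per the submitters' processing notes, the tools included STAR 2.7.10b, SAMtools 1.17, UMI-tools 1.1.4 and HTSeq 2.0.2, and the builds mm10 and GRCm38.p4. Their settings are not given in the sources used here. Reads outside genes (6.76% to 27.0% of reads), ambiguous reads (3.65% to 6.11%) and reads without a unique place entered neither library sizes nor tests.

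The members and all gene lists were chosen with earlier results of these data known. Symbols, positions and exonic lengths came from GENCODE M21 (GRCm38), which matched 48058 of 48526 rows without the version suffix. DKO and control were compared within each kind of library by the quasi-likelihood test of edgeR 4.0.16 in R 4.3.3 (TMM scaling, genes kept by filterByExpr at a minimum of 10 counts, adjusted p under 0.05 by Benjamini-Hochberg over all genes tested), in fits of 4 libraries. Pulldown and input, and K1 and J2, were compared in fits of 8 libraries. CPM used 1 TMM scaling over the 12 libraries, and log2 CPM a prior count of 2. Alternatives were other scalings, no filter, DESeq2 1.42.0, the replicate as a block, a fit of all 12 libraries, libraries thinned to 2220291 counts and leaving out each mouse. Replicates differed beyond counting noise in every group (chi-square per degree of freedom of 11.0 or more). Libraries of the same mouse deviated together (r = 0.23 to 0.49 between kinds of library), and the labels' descriptions tie them to the mouse, so the block pairs libraries within a genotype. Equal numbers across genotypes did not deviate together (r = -0.12 to 0.03).

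Genes were named by rule: all members, genes within 300 kb of them averaging 50 counts or more, the 3 most abundant genes of each list, and the 5 genes most correlated with Gml2 and with Ly6d. Members and genes with symbols of the Gm or Rik kind were no candidates for that correlation. Others are named where they make up a small count or carry a marker list. Transcripts were compared by blastn 2.17.0+.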

Additional observations from a re-analysis of the deposited data

Results flagged for a closer look

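The J2 pulldown minus input value of Gml2 had opposite signs in the genotypes: 0.18 and 2.24 in the control mice and -1.66 and -1.40 in the DKO mice on the log2 CPM scale, a difference of -2.74 between the means. The K1 value of Ly6d did so too, at 0.39 and 0.88 in control and -1.05 and -4.71 in DKO, a difference of -3.52. Neither difference was tested. The control values rest on 2 and 0 counts in input and 3 and 9 in J2 for Gml2, and on 0 and 1 counts in input and 1 and 4 in K1 for Ly6d, where a prior count of 2 sets much of the value.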

How the results depend on the processing

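Each result was recomputed under other settings. The median log2 fold change of the members in input (8.34) was 7.34 without a filter on low counts, 7.15 with thinned libraries and 7.05 to 8.17 when 1 mouse was left out. The number of members called in J2, DKO against control (4), was 2 without TMM scaling and 1 to 6 when 1 mouse was left out. In K1 it stayed between 4 and 6. For J2 against input in control (0), it was 1 without TMM scaling and 0 to 1 with a mouse left out. For J2 against input in DKO (1), it was 2 when scaled by DESeq2 size factors, and 3 without TMM scaling, without the filter, with the DESeq2 test, in the fit of all 12 libraries and with thinned libraries, and it was 0 to 3 with a mouse left out. For K1 against input in control (0), it was 1 with DESeq2 size factors, without TMM scaling, with the DESeq2 test and with thinned libraries, 2 without the filter and 0 to 2 with a mouse left out. For K1 against J2 in control (0), it was 1 without the filter. With a mouse left out the number of all genes called moved widely as well, so these ranges are not read as a result about the members. The median difference of the J2 pulldown minus input values, DKO minus control (-2.45), was -1.71 with thinned libraries and -3.32 to -1.52 with a mouse left out. The sign of Ly6c1 turned for J2 against input in DKO without TMM scaling (-0.07) and without DKO replicate 1 (-0.36, against 0.75 without DKO replicate 2), and for K1 against input in DKO without DKO replicate 1 (-2.07, against 1.14 without DKO replicate 2). The cause was not tested. Of the other single-gene comparisons, 233 stayed the same, 39 gained a call, 8 lost one and 13 input values, which had no test, moved. Where a test was made, staying the same meant keeping direction and side of the threshold. For input values it meant a move of less than 1 SE. Where a group keeps 1 library, that library is assumed to vary like the other groups.

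Between genotypes a replicate number is shared by different mice, which did not deviate together, so the 5 members called in J2 and 5 in K1 for DKO against control with the replicate as a block, Ly6d in J2 added among them, are not read further. Within a genotype, where the number is the mouse, the block gave 2 called members for J2 against input in DKO, 2 for K1 against input in control and 2 for K1 against J2 in control, and it changed no other count of members by over 1.5 times.

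Counts over all genes moved by over 1.5 times in several settings. In input, 5421 genes were called, but 1675 in the fit of all 12 libraries and 3378 with thinned libraries. In J2 the 1606 calls became 5984 in that fit, 4273 without the filter, 2884 with DESeq2 and 177 to 8635 with a mouse left out, and in K1 the 3487 calls became 1149 to 5819 with a mouse left out. Without TMM scaling the median of all genes in K1 was -0.39, with 1148 of 4184 calls higher, against 1695 of 3487. In J2, 446 of 1364 calls were then higher, against 794 of 1606, and in input 2138 of 5074, against 2841 of 5421. In the shallowest library, K1 of DKO replicate 2, Ly6d had 1 count and Ly6c1 had 3, so their levels there are bounded only loosely by counting error.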
